A study of Oryza sativa with 5 samples.

Results

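Lipoxygenase transcripts of rice seedlings were examined through 10 genes, a list of locus identifiers looked up in the gene column of the expression tables, out of 22546 genes with a tag in at least 1 library. The tables described 12 genes as lipoxygenases, so 2 stood outside the list: LOC_Os05g23880, and LOC_Os03g49350, whose description is spelt lipozygenase. The list was chosen by the description of the genes and by the counts and TPM of LOC_Os12g37260 and LOC_Os03g52860, both higher in FU and lower in FR than in SY63. The FU and FR contrasts with SY63 are therefore given as a description, with no p-value. Where lipoxygenase genes past the study's thresholds are counted in these 2 contrasts, nothing is read from the counts.

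Transcript tags were counted in 15-day-old seedlings of 5 genotypes, with 1 library each. FU was the hybrid SY63 with an over-expression construct of OsHDT1 (the sample labels write FV), and FR was SY63 with an RNAi construct against the same gene. SY63 without a construct was the hybrid of ZS97 (female) and MH63 (male), and MH63 and ZS97 were its indica parents. OsHDT1 (LOC_Os05g51830) encodes a histone deacetylase of the plant-specific HD2 class. The maize ubiquitin promoter drove over-expression and a cauliflower mosaic virus promoter drove the RNAi transcript, and both are active in most tissues. The constructs had been brought into MH63, so FU and FR received them from the male side. All seedlings had grown on 1/2 MS medium in days of 15 h light and 9 h dark. The sources used here do not give how many seedlings or transgenic lines went into a library, and there were no replicates, so intervals cover counting error only.

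Lipoxygenases are iron-containing enzymes that add oxygen to polyunsaturated fatty acids and so open the oxylipin pathway. The hydroperoxides they make are taken up by allene oxide synthase, allene oxide cyclase and oxophytodienoate reductase on the way to jasmonates, or by hydroperoxide lyase on the way to volatile aldehydes. Jasmonates are known for wound and defence responses, and the lipoxygenases that feed them act in the chloroplast, whereas other members of the family act in the cytoplasm. By the descriptions and gene ontology terms in the tables, 7 of the 10 genes were assigned to the chloroplast or plastid (LOC_Os12g37260, LOC_Os12g37320, LOC_Os08g39840, LOC_Os08g39850, LOC_Os03g08220, LOC_Os02g10120 and LOC_Os04g37430) and 3 to the cytoplasm (LOC_Os03g52860, LOC_Os03g49380 and LOC_Os03g49260).

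Sequencing gave 4821637 clean tags in FU, the smallest library, and 5022081 in MH63, the deepest, with 69.5 to 73.9% of them on genes. OsHDT1 had 7590 tags in FU, 142 in FR, 428 in SY63, 2633 in MH63 and 304 in ZS97, so its order among the hybrids followed the labels of FU and FR. The 4 genes described as rubisco small chain summed to between 41190.6 and 58098.1 TPM (tags of a gene scaled to 1000000 clean tags of its library), and none was at 0, so transcripts of green tissue were plentiful in every library. The 17 genes described as chlorophyll A-B binding proteins summed to 10927.7 to 14795.6 TPM in FU, FR, SY63 and ZS97 but to 5003.5 TPM in MH63, the library that stood apart. A transcript that holds the cutting site CATG gives 1 tag whatever its length, so the scale needs no correction for length. Transcripts without the site give no tag, and tags lost to mismatches or to near-identical copies can lower one gene more than another. Orders and shares between genes are therefore those of the counted tags. No gene had a count of 1 in any library. The limit set for a count of 0 was 3 tags per library, or 0.597 to 0.622 TPM.

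**Figure D1:**
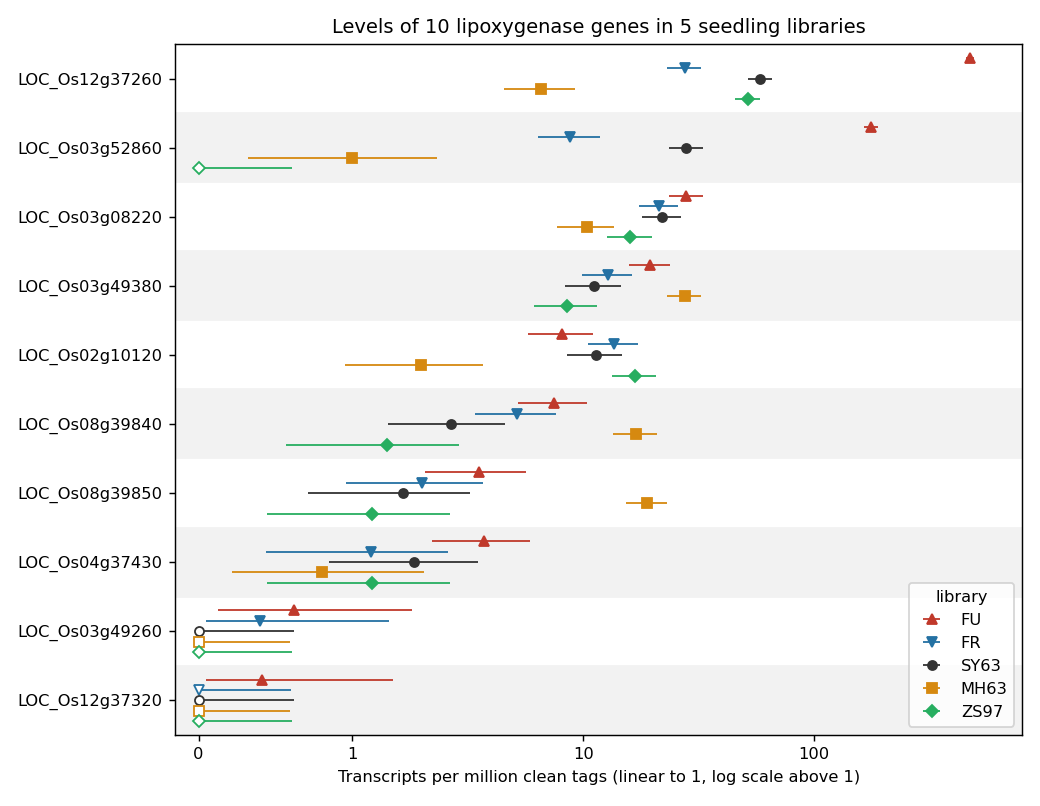
Level of each of the 10 lipoxygenase genes in the 5 libraries, in TPM on an axis that is linear to 1 and logarithmic above it; bars are 95% counting intervals of single libraries, and open symbols are counts of 0 with bars that end at 3 tags. LOC_Os12g37260 and LOC_Os03g52860 reached 475 and 177 TPM in FU, while LOC_Os08g39840 and LOC_Os08g39850 were highest in MH63 at 16.9 and 18.9 TPM.

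LOC_Os12g37260, described as lipoxygenase 2.1 with a chloroplast precursor, was the most abundant of the 10 genes in FU, FR, SY63 and ZS97. It had 2289 tags in FU, 138 in FR, 283 in SY63, 33 in MH63 and 256 in ZS97, which are 475, 27.5, 58.3, 6.57 and 51.6 TPM. FU stood far above every other library, SY63 and ZS97 could not be separated (log2 ratio 0.17, 95% interval -0.07 to 0.42), FR lay below both, and MH63 was lowest. The level in FU was 8.15 times that in SY63 (log2 ratio 3.03, interval 2.85 to 3.21). The level in FR was 2.12 times lower than in SY63 (log2 ratio -1.08, interval -1.39 to -0.78). In seedling RNA, more or fewer cells that make a transcript and more or less transcript per cell cannot be told apart.

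LOC_Os03g52860, a lipoxygenase assigned to the cytoplasm, had almost no counted tags in either parental library. Its primer pair in the study's quantitative PCR is printed here because it gives the ends of the stretch by which the study followed this gene outside the tag libraries. Both oligos are written 5′ to 3′, and neither holds CATG, the site at which tags were cut.
LOC_Os03g52860 forward: acacgctgctctacccaaaca
LOC_Os03g52860 reverse: aactactcttgtccacgctggc

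LOC_Os03g52860 had 853 tags in FU, 44 in FR, 136 in SY63, 5 in MH63 and 0 in ZS97, which are 177, 8.78, 28.0, 1.00 and 0 TPM. Each hybrid library was thus above both parental libraries, and the order FU, SY63, FR, MH63 was separated at every step by more than counting error, whereas 5 tags in MH63 and 0 in ZS97 were not. The level in FU was 6.32 times that in SY63 (log2 ratio 2.66, interval 2.40 to 2.93). The level in FR was 3.19 times lower than in SY63 (log2 ratio -1.67, interval -2.20 to -1.17). Set directly against FR, FU was 20.2 times higher for LOC_Os03g52860 and 17.2 times higher for LOC_Os12g37260, while OsHDT1 was 55.6 times higher. In all, 4 of 21901 genes (0.0183%) were past the study's thresholds upward in FU and downward in FR. Besides OsHDT1 they included these 2 lipoxygenases. The choice of the list used these same values of the 2 genes, so nothing is read from their place among the 4.

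None of the other 8 genes was past these thresholds in FU or in FR. Of the chloroplast genes, LOC_Os08g39840 had 36 tags in FU, 26 in FR, 13 in SY63, 85 in MH63 and 7 in ZS97. Its neighbour by locus number, LOC_Os08g39850, had 17 tags in FU, 10 in FR, 8 in SY63, 95 in MH63 and 6 in ZS97. Both genes ran in the order MH63, FU, FR, SY63, ZS97, and only the step between MH63 and FU was larger than counting error. The log2 ratio of FU to SY63 was 1.48 (interval 0.53 to 2.52) for LOC_Os08g39840 and 1.10 for LOC_Os08g39850, whose interval of -0.19 to 2.52 included 0. In FR their log2 ratios to SY63 were 0.95 (interval -0.06 to 2.04) and 0.28 (interval -1.22 to 1.82).

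LOC_Os03g08220, described as a lipoxygenase protein and assigned to the plastid, had the narrowest range of levels, taken as the ratio of highest to lowest, among the 8 genes with at least 10 tags. It had 135 tags in FU, 107 in FR, 107 in SY63, 52 in MH63 and 79 in ZS97. In the order FU, SY63, FR, ZS97, MH63, only the last step exceeded counting error. LOC_Os02g10120, also of the plastid, had 39 tags in FU, 68 in FR, 55 in SY63, 10 in MH63 and 83 in ZS97. It was the only gene of those 8 with a lower value in FU than in SY63 (log2 ratio -0.49, interval -1.12 to 0.13), and MH63 again was the sole library separated from its neighbour. LOC_Os04g37430, the third plastid gene, had 18 tags in FU, 6 in FR, 9 in SY63, 4 in MH63 and 6 in ZS97. No step between neighbours in its order exceeded counting error, but FU against FR did (log2 ratio 1.64, interval 0.25 to 3.26).

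LOC_Os03g49380, the second cytoplasmic gene with more than a few tags, had 94 tags in FU, 64 in FR, 54 in SY63, 138 in MH63 and 42 in ZS97. MH63 was above FU and FU above FR by more than counting error, while the steps from FR to SY63 and from SY63 to ZS97 were within it. The last 2 genes were at the limit of detection. LOC_Os03g49260 had 3 tags in FU, 2 in FR and 0 elsewhere. LOC_Os12g37320, described as lipoxygenase 2.2 with a chloroplast precursor, had 2 tags in FU and 0 elsewhere, although its description is the closest of the 10 to that of LOC_Os12g37260. Outside the list, LOC_Os05g23880 had 200 tags in FU, 264 in FR, 247 in SY63, 233 in MH63 and 274 in ZS97. LOC_Os03g49350 had 32 tags in FU, 12 in FR, 12 in SY63, 3 in MH63 and 17 in ZS97.

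The first question of the study's design was how raising or lowering OsHDT1 in the hybrid altered transcript levels. Past the study's thresholds (false discovery rate at most 0.001 and at least 2-fold) were 2 of the 10 genes in FU against SY63, both higher, beside 3% of all 21314 genes with a tag in either library (2.19% higher and 0.812% lower). In FR against SY63 they were 2 of the 9 genes with a tag, both lower, beside 1.16% of 21024 genes (0.585% higher and 0.576% lower). In both contrasts these were LOC_Os12g37260 and LOC_Os03g52860, whose values the choice of the list used, so these counts describe the choice and nothing is read from them. By size alone, and again with this pair included, 5 of the 8 genes with at least 10 tags summed over the 2 libraries were at least 2-fold higher in FU and 0 were lower, beside 9.04% of all such genes higher and 5.06% lower. In FR, 0 of 8 were higher and 2, the same pair, were lower, beside 4.55% and 5.49% of all such genes. Without the pair, 3 of the other 6 genes were at least 2-fold higher in FU (LOC_Os08g39840, LOC_Os08g39850 and LOC_Os04g37430), with intervals that included 0 for the last 2, and 0 of 6 were 2-fold away in FR.

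**Figure D2:**
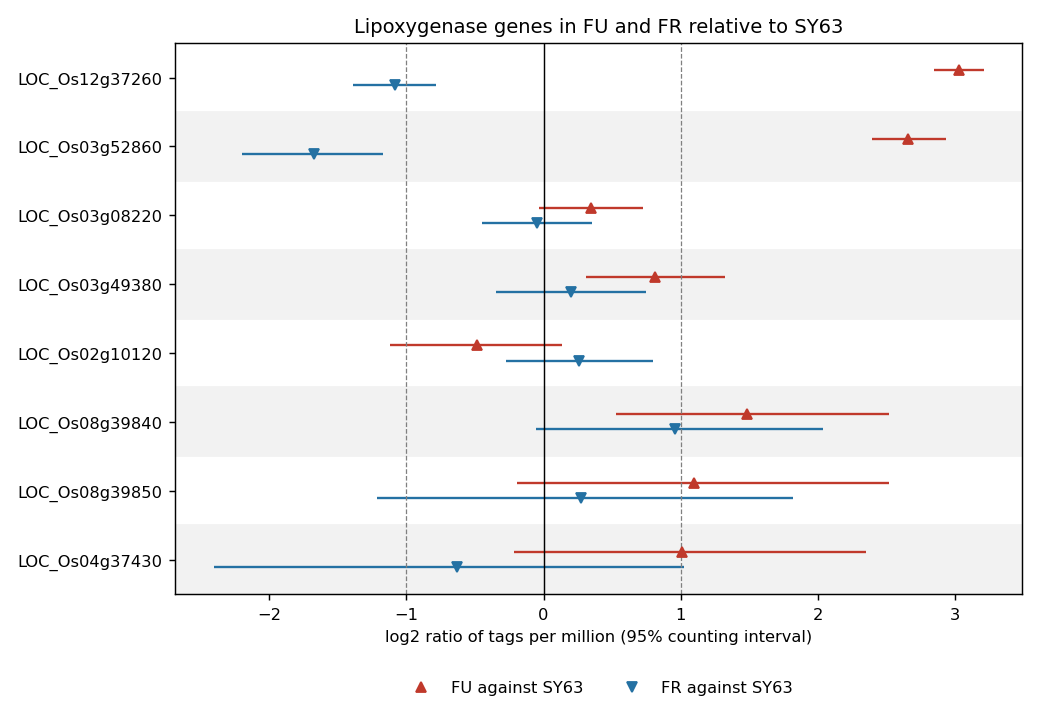
Log2 ratio of TPM in FU (upward triangles) and in FR (downward triangles) to SY63 for the 8 lipoxygenase genes with at least 10 tags, with 95% counting intervals; dashed lines mark 2-fold. LOC_Os12g37260 and LOC_Os03g52860 lie beyond the line at 3.03 and 2.66 in FU and at -1.08 and -1.67 in FR, and the FR intervals of the other 6 genes reach 0.

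The median log2 ratio of the 8 genes was 1.05 in FU and 0.08 in FR, against 0.05 and -0.05 over all genes with at least 10 tags, which for the 2 leading genes repeats the values behind their choice. Over the other 6 genes, log2 ratios to SY63 lay between -0.49 (LOC_Os02g10120) and 1.48 (LOC_Os08g39840) in FU, with a median of 0.91. In FR they lay between -0.63 (LOC_Os04g37430) and 0.95 (LOC_Os08g39840), with a median of 0.23. Values were above SY63 in 5 of these 6 genes in FU and in 4 of 6 in FR, but the interval included 0 for 4 of the 6 in FU and for all 6 in FR. FU and FR share the SY63 library, so a chance deviation of SY63 enters both ratios of a gene. Between FU and FR themselves, 7 of the 8 genes had a higher value in FU (5 of the 6 without the leading pair), as 56.1% of all such genes had, and LOC_Os02g10120 was the exception (log2 ratio -0.75, interval -1.35 to -0.16).

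Summed over the 10 genes, lipoxygenase transcripts stood at 723 TPM in FU, 92.8 TPM in FR, 136.9 TPM in SY63, 84.0 TPM in MH63 and 96.6 TPM in ZS97. The excess in FU lay in the leading genes: the other 8 summed to 71.3 TPM in FU, 56.5 TPM in FR, 50.6 TPM in SY63, 76.5 TPM in MH63 and 45.0 TPM in ZS97. LOC_Os12g37260 and LOC_Os03g52860 together took 90.1% of the tags of these 10 genes in FU (exact 95% interval 89.1 to 91.1). Their share was 39.1% in FR (34.7 to 43.7), against 63.0% in SY63 (59.2 to 66.7). In the parents they took 9.00% in MH63 (6.45 to 12.2) and 53.4% in ZS97 (48.9 to 58.0). Among the 10 genes, MH63 alone had another leading gene, the cytoplasmic LOC_Os03g49380, with 32.7% of the tags. LOC_Os05g23880, which stood outside the list, is not part of these sums and shares. It had 264 tags in FR, 274 in ZS97 and 233 in MH63, more than any of the 10 genes in those libraries.

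**Figure D3:**
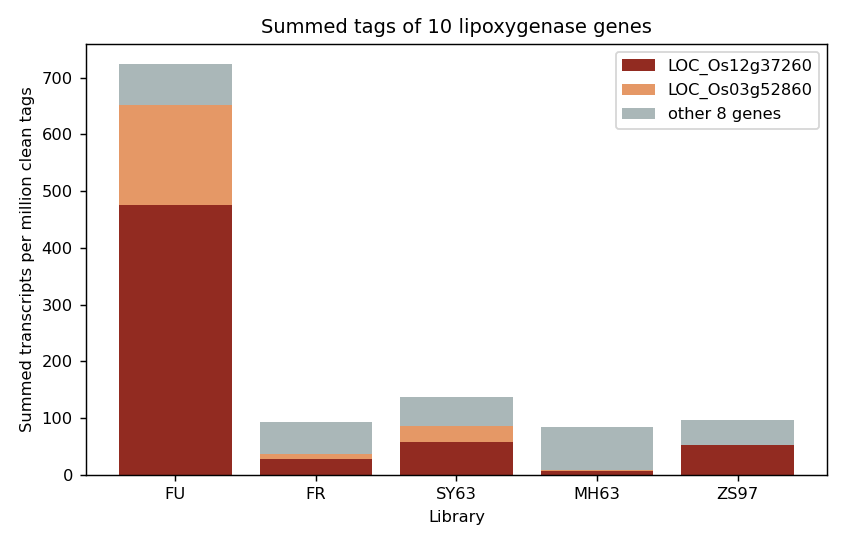
Summed TPM of the 10 lipoxygenase genes in each library, split into LOC_Os12g37260, LOC_Os03g52860 and the other 8 genes. FU reaches 723 TPM and the other 4 libraries lie between 84.0 and 136.9 TPM, while the other 8 genes range only between 45.0 and 76.5 TPM.

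Between the parental libraries, 5 lipoxygenase genes differed in level, in a comparison that used neither FU, FR nor SY63. Of the 8 genes with a tag in either parent, 3 were higher and 2 lower in MH63 than in ZS97 by the exact test of Audic and Claverie with Benjamini-Hochberg adjustment over all genes, beside 17.5% of all 20560 genes (10.7% higher and 6.86% lower). The 3 higher genes were the neighbours LOC_Os08g39850 and LOC_Os08g39840 and the cytoplasmic LOC_Os03g49380, and the 2 lower ones were LOC_Os02g10120 and LOC_Os12g37260. So of the chloroplast genes called, the neighbouring pair was higher in MH63 and the other 2 were lower.

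LOC_Os08g39850 had 95 tags in MH63 and 6 in ZS97, a log2 ratio of 3.97 (interval 2.79 to 5.45) with an adjusted p of 3.09e-20 by the test of Audic and Claverie. LOC_Os08g39840 had 85 and 7 tags in the same order of libraries, a log2 ratio of 3.58 (interval 2.48 to 4.94, adjusted p 8.79e-17 by that test). LOC_Os03g49380 followed with 138 tags in MH63 and 42 in ZS97 (log2 ratio 1.70, interval 1.19 to 2.23, adjusted p 7.01e-12 by that test). In these 3 genes MH63 was also the highest of all 5 libraries, as it was for 37.9% of all genes with at least 10 tags over SY63 and the parents. LOC_Os02g10120 fell to 10 tags in MH63, against 83 in ZS97 (log2 ratio -3.07, interval -4.18 to -2.12, adjusted p 7.68e-15 by that test). LOC_Os12g37260 fell to 33 tags in MH63, against 256 in ZS97 (log2 ratio -2.97, interval -3.54 to -2.45, adjusted p 2.93e-43 by that test).

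LOC_Os03g08220 (log2 ratio -0.62, adjusted p 0.0354), LOC_Os04g37430 (log2 ratio -0.60, adjusted p 0.637) and LOC_Os03g52860 (5 tags against 0, adjusted p 0.122) were not called between MH63 and ZS97 by the Audic and Claverie test. The median log2 ratio of the 7 genes with at least 10 tags was -0.60, against 0.20 over all genes. The test compares libraries and not genotypes: when a biological coefficient of variation of 0.4 was assumed in edgeR's exact test, 0 of the 5 calls remained. The MH63 library, which also stood apart in its chlorophyll A-B binding transcripts, enters every one of these ratios, and its part in them was not tested.

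**Figure D4:**
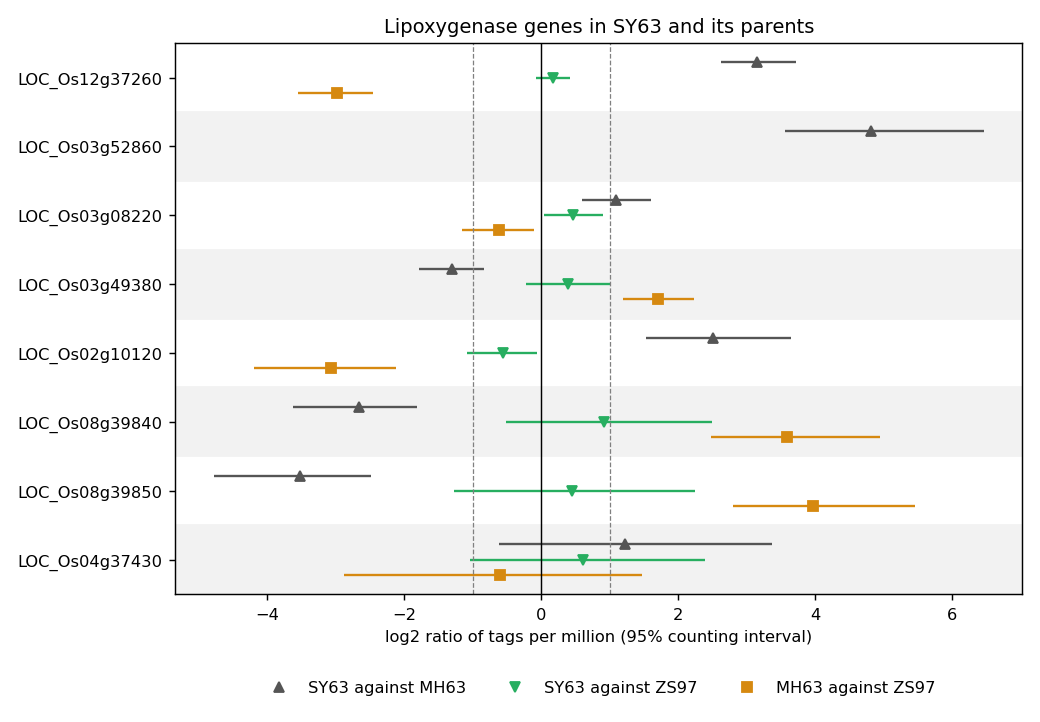
Log2 ratio of TPM of SY63 to MH63 (upward triangles), of SY63 to ZS97 (downward triangles) and of MH63 to ZS97 (squares) for 8 lipoxygenase genes, with 95% counting intervals and dashed lines at 2-fold. For genes with tags in ZS97, ratios of SY63 to ZS97 lie between -0.56 and 0.92 and those of SY63 to MH63 between -3.52 and 3.15. Ratios of MH63 to ZS97 lie between -3.07 and 3.97. LOC_Os03g52860, at 4.81 for SY63 to MH63, had 0 tags in ZS97 and has no point for ratios to that library.

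The second question was how the hybrid related to its parents. In SY63 against MH63, 7 of the 8 genes with a tag were called, 4 higher and 3 lower, beside 16.5% of all 20948 genes (7.1% higher and 9.37% lower). The 4 higher were LOC_Os03g52860, LOC_Os12g37260, LOC_Os02g10120 and LOC_Os03g08220, and the 3 lower were LOC_Os08g39850, LOC_Os08g39840 and LOC_Os03g49380. This comparison shares the MH63 library with that of the parents and the SY63 library with those of FU and FR. The values therefore stand side by side and are not independent. LOC_Os03g52860 and LOC_Os12g37260 were chosen through contrasts that used the same SY63 counts, so their calls are not independent of the choice.

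LOC_Os03g52860 rose to 136 tags in SY63, against 5 in MH63, which is 28.1 times higher (log2 ratio 4.81, interval 3.56 to 6.46, adjusted p 1.17e-33 by the Audic and Claverie test). LOC_Os12g37260 rose to 283 tags, against 33 in MH63 (log2 ratio 3.15, interval 2.63 to 3.72, adjusted p 8.36e-51 by that test). LOC_Os02g10120 rose to 55 tags, against 10 in MH63 (log2 ratio 2.51, interval 1.52 to 3.65, adjusted p 4.04e-08 by that test). LOC_Os03g08220 passed the 2-fold threshold narrowly, with 107 tags in SY63 and 52 in MH63 (log2 ratio 1.09, interval 0.60 to 1.60, adjusted p 2.90e-05 by that test). The 3 lower genes had log2 ratios of -3.52 (LOC_Os08g39850), -2.66 (LOC_Os08g39840) and -1.31 (LOC_Os03g49380). LOC_Os04g37430 had 9 tags in SY63 and 4 in MH63 and was not called (adjusted p 0.357 by that test). With an assumed coefficient of variation of 0.4 in edgeR's exact test, 0 of these 7 calls remained.

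Against ZS97 the hybrid differed in 1 of the 8 genes, LOC_Os03g52860, beside 3.95% of all 20783 genes (2.88% higher and 1.07% lower). It had 136 tags in SY63 and 0 in ZS97, at least 46.3-fold higher when the 0 is set to the limit of 3 tags per library and the counting error of the 136 tags is left aside (adjusted p 1.20e-39 by the Audic and Claverie test). LOC_Os03g52860 was chosen through contrasts that used the same SY63 count, so its call is not independent of the choice. The remaining 7 genes had log2 ratios between -0.56 (LOC_Os02g10120, interval -1.08 to -0.06) and 0.92 (LOC_Os08g39840, interval -0.51 to 2.49), and none was called. For LOC_Os12g37260, with 283 tags in SY63 and 256 in ZS97, the interval of the log2 ratio held differences of up to 0.42. For LOC_Os08g39850 and LOC_Os04g37430, with fewer than 10 tags in each library, the intervals reached 2.25 and 2.39, so that a change of several fold was not detectable at this depth.

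Set against the mean of both parents, SY63 was at least 2-fold away in 4 of the 8 genes, 2 above and 2 below, beside 8.19% above and 9.64% below of the 18223 genes with at least 10 tags over SY63 and its parents. LOC_Os03g52860 lay above both parents, with a log2 ratio of 5.81 to the mid-parent level of 0.498 TPM. LOC_Os12g37260 stood just past the threshold at 1.00, a little above its higher parent ZS97. These 2 genes were the pair chosen through contrasts with the SY63 library, so their place above the mid-parent is not independent of the choice. LOC_Os08g39850 (-2.61) and LOC_Os08g39840 (-1.78) were below the mid-parent but between the parents, near the ZS97 level. The other 4 genes lay between -0.69 (LOC_Os03g49380) and 0.88 (LOC_Os04g37430).

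In the FU hybrid, LOC_Os03g52860 and LOC_Os12g37260 lay 8.47 and 4.03 log2 units above the mid-parent. In FR, LOC_Os03g52860 stayed above both parents (log2 ratio 4.14), whereas LOC_Os12g37260 was close to the mid-parent (log2 ratio -0.08) and between the parents. Among the 8 genes, LOC_Os03g52860 and LOC_Os03g08220 were the ones above both parents in all 3 hybrid libraries, which held for 13.1% of the 18223 genes with at least 10 tags over SY63 and its parents. For LOC_Os03g08220 the margins were small, with 28.0 TPM in FU, 21.3 TPM in FR and 22.0 TPM in SY63, against 15.9 TPM in ZS97, its higher parent.

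By the tag counts of these single libraries, MH63 had the second highest level of OsHDT1, at 524 TPM, and the lowest level of LOC_Os12g37260. ZS97 had 61.3 TPM of OsHDT1 and 51.6 TPM of LOC_Os12g37260. Over these 5 libraries the order of LOC_Os12g37260 was not that of OsHDT1, and the order FR, SY63, FU held within the hybrids only. The same was true of LOC_Os03g52860, with 1.00 TPM in MH63. MH63 was a single library of another genotype, and it also stood apart in its chlorophyll A-B binding transcripts. Whether the level of OsHDT1 bears on either gene was not tested.

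The genes most like the 2 leading lipoxygenases over the 5 libraries were found among 13679 genes with at least 100 tags in all, by the root mean square distance between centred log2(TPM + 1) values. The distances include the FU, FR and SY63 values by which the 2 genes were chosen. Neighbours that are high in FU therefore follow from the choice, and nothing is read from that. Nearest to LOC_Os12g37260 was LOC_Os08g07080, described as a terpene synthase, at a distance of 0.705, with 100 tags in FU, 6 in FR, 22 in SY63, 0 in MH63 and 4 in ZS97. Next came LOC_Os07g34260, described as a chalcone and stilbene synthase, at 0.765, and LOC_Os09g12290, a bifunctional aspartokinase and homoserine dehydrogenase of amino acid synthesis, at 0.820. The nearest gene was thus far less abundant than the lipoxygenase, and in ZS97 it did not have the high level that LOC_Os12g37260 had there.

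Nearest to LOC_Os03g52860 was LOC_Os12g27350, described as an acetyltransferase, at a distance of 0.775, with 584 tags in FU, 110 in FR, 95 in SY63, 14 in MH63 and 5 in ZS97. It was followed by LOC_Os01g03680, a Bowman-Birk type trypsin inhibitor, at 0.889, and LOC_Os12g14440, a jacalin-like lectin domain protein, at 0.893. Of these 3, only the trypsin inhibitor was lower in FR (42 tags) than in SY63 (133 tags) by a margin like that of the lipoxygenase. The 2 lipoxygenases were 1.71 apart: LOC_Os12g37260 was at rank 28 from LOC_Os03g52860, and LOC_Os03g52860 was at rank 2100 from LOC_Os12g37260. They differed most in ZS97, where they had 256 and 0 tags.

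The rest of the oxylipin pathway was read from lists made by words in the gene descriptions, namely 8 fatty acid desaturases, which make the polyunsaturated substrates, 12 genes of jasmonate synthesis, 8 ZIM-domain genes, a family that includes the jasmonate repressors, and 5 genes named for jasmonate or coronatine, which include relatives of the jasmonate receptor of Arabidopsis. The tables held 0 genes described as hydroperoxide lyase. None of the 12 genes of the jasmonate synthesis list was described as allene oxide synthase. That list held genes described as oxophytodienoate reductase, allene oxide cyclase or acyl-CoA oxidase. These descriptions do not tell which of the genes act in jasmonate synthesis. Over all lists, 2 of 29 genes were past the study's thresholds in FU (6.90%), beside 2.19% of all genes higher and 0.812% lower. Both were higher, and both were among the 11 genes with a tag in the jasmonate synthesis list. These were allene oxide cyclase LOC_Os03g32314, with 415 tags in FU and 199 in SY63 (log2 ratio 1.07, interval 0.82 to 1.32), and oxophytodienoate reductase LOC_Os06g11210, with 65 tags in FU and 7 in SY63 (log2 ratio 3.23, interval 2.10 to 4.60). In FR they had 264 and 3 tags, and 0 of 28 genes of the lists were past the thresholds, beside 1.16% of all genes.

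**Figure D5:**
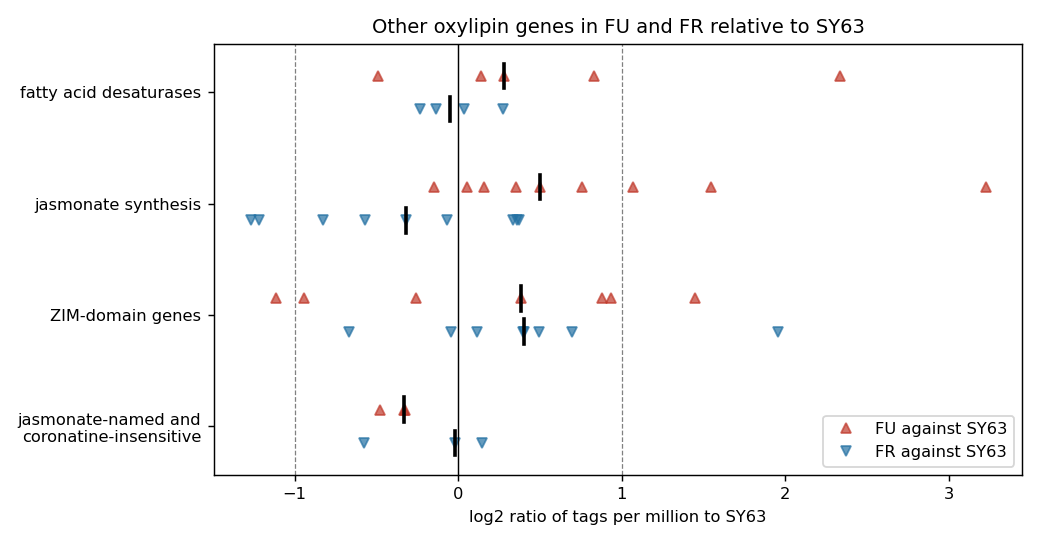
Log2 ratio of TPM in FU (upward triangles) and in FR (downward triangles) to SY63 for genes of 4 oxylipin lists with at least 10 tags; black bars are medians and dashed lines mark 2-fold. In the jasmonate synthesis list, made by gene descriptions, the median was 0.50 in FU and -0.32 in FR, and LOC_Os06g11210 lies farthest to the right at 3.23.

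In the jasmonate synthesis list, the median log2 ratio of genes with at least 10 tags was 0.50 in FU and -0.32 in FR. It was taken over 9 genes each, against 0.05 and -0.05 over all genes. Of the desaturases it was 0.28 in FU and -0.05 in FR. Of the ZIM-domain genes it was 0.38 in FU and 0.40 in FR, with members on both sides of 0 in each hybrid, such as LOC_Os09g23660 (0.94 in FU and 0.69 in FR) and LOC_Os03g08330 (-0.94 in FU and 0.40 in FR). The 3 genes named for jasmonate or coronatine that had enough tags had a median of -0.33 in FU and -0.02 in FR.

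Between the parents, 7 of the 30 genes of these lists with a tag were called (23.3%, beside 17.5% of all genes), 6 lower in MH63 (20%, beside 6.86%) and 1 higher (3.33%, beside 10.7%). Acyl-CoA oxidase LOC_Os06g24704, from the jasmonate synthesis list, had 130 tags in MH63 and 643 in ZS97. Its log2 ratio was -2.33, with an adjusted p of 3.49e-82 by the Audic and Claverie test. The coronatine-insensitive genes LOC_Os02g52230 and LOC_Os03g15880, whose family in Arabidopsis holds the jasmonate receptor, had 55 and 306 tags in MH63, against 266 and 1056 in ZS97 (log2 ratios -2.29 and -1.81). The chloroplast desaturases LOC_Os03g18070 and LOC_Os08g34220 had 57 and 86 tags in MH63, against 146 and 187 in ZS97 (log2 ratios -1.38 and -1.14). Chosen after their values were seen, the others were oxophytodienoate reductase LOC_Os02g35310, with 11 tags in MH63 and 38 in ZS97, and the 1 higher gene, desaturase LOC_Os07g23430, with 143 tags in MH63 and 5 in ZS97.

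In SY63 against MH63, 4 of 29 genes of the lists were higher and 4 lower, 13.8% each, beside 7.1% and 9.37% of all genes. The 4 higher were LOC_Os06g24704 (log2 ratio 2.25), LOC_Os02g52230 (2.27), LOC_Os03g15880 (1.44) and LOC_Os08g34220 (1.06). The 4 lower were the ZIM-domain genes LOC_Os03g08330 (log2 ratio -1.47) and LOC_Os09g23660 (-1.30), oxophytodienoate reductase LOC_Os01g27230 (-1.01) and desaturase LOC_Os07g23430. The last, with 2 tags in SY63 and 143 in MH63, was named after its values were seen. Against ZS97, 2 of 29 genes of the lists were called in SY63 (6.90%, beside 3.95% of all genes), both ZIM-domain genes and both lower, where 1.07% of all genes were. LOC_Os03g08330 had 147 tags in SY63 and 318 in ZS97 (log2 ratio -1.08), and LOC_Os10g25290 had 46 and 114 tags in the same order (log2 ratio -1.28).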

How the data were processed

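Tag libraries of 5 genotypes were analysed, with 1 library each. According to the paper's methods, cDNA was cut with NlaIII at CATG and MmeI, and tags were read on an Illumina instrument and matched to cDNAs of the MSU rice annotation 6.1 (japonica) with at most 1 mismatch, and tags of several genes were removed. Tags of an indica allele that differs more, or of near-identical copies, are therefore missing from a gene's count. The authors deposited whole-number counts of unambiguous tags per gene and the TPM values made from them by scaling to all clean tags, with 0 written as 0.01. The software for matching is not given in the sources used here. The tables also hold the authors' own log2 ratios, p-values and false discovery rates, which were not used, and neither were their filtered tables or a table of genome-matched tags without gene names.

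Counts and TPM of 5 pairwise tables were read, and 0 values differed between tables. Pairs of libraries were tested on their counts and clean-tag totals by the method of Audic and Claverie (exact, 2-sided), with Benjamini-Hochberg adjustment over genes with a tag in either library, and a gene was called when its false discovery rate did not exceed 0.001 and its log2 ratio was 1 or more in size. The quasi-likelihood test of edgeR needs replicates and was not fitted, so p-values compare libraries. Intervals are Clopper-Pearson at 95% on the split of tags between libraries and cover counting error only. Alternatives used edgeR 4.0.16 and DESeq2 1.42.0 in R 4.3.3. The test was run in Python 3.11.15 with SciPy 1.17.1 and tested on simulated data.

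The members and lists were chosen with earlier results of these data known. All 10 members were named. From the lists, called genes were named if both libraries held 20 tags or more, at most 3 per list by size of ratio, with genes past the thresholds in FU or FR. Outside this rule, LOC_Os02g35310 and LOC_Os07g23430 were named after their values were seen. The 3 genes nearest in profile to each leading gene were also named. The deposited locus identifiers matched 0 entries of the reference gene table, so no coordinates, promoters or proteins are given and the planned motif and identity description was not run.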

Additional observations from a re-analysis of the deposited data

How the results depend on the processing

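Counts of lipoxygenase genes called stayed at 5 (MH63 against ZS97), 7 (SY63 against MH63) and 1 (SY63 against ZS97), with the same genes, under TMM factors, DESeq2 size factors, totals of tags on genes, 1 added to every TPM, a minimum of 10 tags and Fisher's exact test. The 2 genes past the thresholds in FU and in FR also remained under those alternatives that were run for them, which left out Fisher's test. The count of genes at least 2-fold higher in FU by size alone did not hold. LOC_Os04g37430 fell to log2 ratios of 0.93 (TMM), 0.94 (DESeq2), 0.99 (totals of tags on genes) and 0.73 (1 added to every TPM). LOC_Os08g39850 fell below 2-fold with 1 added to every TPM (0.77). With a biological coefficient of variation of 0.2 assumed in edgeR's exact test, 4, 5 and 1 genes were called in these 3 comparisons, beside 927, 703 and 130 of all genes in place of 3603, 3449 and 820. With 0.4 the calls were 0, 0 and 1, beside 196, 87 and 11 of all genes, so the calls between MH63 and either other genotype depend on how much libraries of 1 genotype vary, which these data do not show. No ratio of a lipoxygenase gene changed sign under any of these alternatives. TMM factors moved the log2 ratios of all genes by -0.18 (MH63 against ZS97) and 0.16 (SY63 against MH63), and DESeq2 size factors by -0.17 and 0.14. With the geometric mean of the parents, 3 in place of 4 genes were at least 2-fold from the mid-parent. No paired analysis was possible because each genotype had 1 library, and for the same reason no library could be left out.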
